A study of Mus musculus with 6 samples.

Results

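The genes described here are 37 genes of glycolysis, gluconeogenesis and the response to low oxygen, chosen by symbol from the 34714 rows of a table of read counts from obstructed mouse kidneys. All 37 have a row, and all 37 passed the filter on low counts with which 18927 genes were tested. They fall into 17 glycolytic enzymes (lactate dehydrogenases included), 7 regulatory enzymes and carriers, 4 gluconeogenic enzymes, and 9 genes of the pathway of hypoxia-inducible factor (HIF). RNA was sequenced from kidneys of male mice operated on at 8 weeks of age and taken 10 days after the left ureter was tied (unilateral ureteral obstruction, UUO), which dams the urine and scars the kidney. The control group was wild-type C57BL/6J (3 libraries), and the other group was a global knockout of Mir92b on C57BL/6JGpt (3 libraries), a single purchased line (allele Mir-92bem22Cd549). In differences between these groups, the deletion, the substrain and the line cannot be told apart. Every kidney was obstructed, and no sham-operated kidney was analysed here. The protocol text calls ligated kidneys non-fibrotic controls, whereas the treatment label of every library gives the obstruction.

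Glycolysis splits glucose into pyruvate in the cytosol, and lactate dehydrogenase interconverts pyruvate and lactate. Gluconeogenesis runs the reversible steps backwards and bypasses the irreversible ones with enzymes of its own, and in the kidney it is a property of the proximal tubule, which burns fatty acids and uses little glucose, whereas the distal nephron relies more on glycolysis. When oxygen is short, HIF escapes the prolyl hydroxylases that mark it for destruction and raises glucose carriers, glycolytic enzymes and other targets.

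The deleted microRNA pairs with its targets through bases 2 to 8 of its mature strand, the seed, printed in capitals (RefSeq, GRCm38.p6, chr3:89227126-89227147, minus strand). The count table has no row for Mir92b, so the deletion was not checked in these libraries. Its relative miR-92a-3p is shown because it carries the same seed.
miR-92b-3p: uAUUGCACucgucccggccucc
miR-92a-3p: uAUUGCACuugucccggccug

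Of the 37 genes, 9 held a match to that seed of at least 7 bases in the longest 3' UTR annotated by GENCODE M21 (8mer GTGCAATA, 7mer-m8 GTGCAAT or 7mer-A1 TGCAATA, on the sense strand), or 24.3%, against 13.9% of the 15394 tested genes with a 3' UTR. These were Pgam1, Pkm, Pklr, Pfkfb4, Slc16a1, Hif1a, Egln3, Ankrd37 and Adm. The sole 8mer stood at the last bases of the Pgam1 3' UTR. Sites of 5 of them are printed as the sense strand with up to 10 bases on either side and the match in capitals, because these genes recur in the results.
Pgam1 8mer: aaggagtgatGTGCAATA
Pkm 7mer-A1: ctctaaaacaTGCAATAgagaccagct
Pklr 7mer-m8: aactgtttagGTGCAATtataaaaaac
Slc16a1 7mer-A1: ggaaccacctTGCAATAtaaagtgttg
Hif1a 7mer-A1: cagttactcaTGCAATAtattctgcat
In GRCm38 these windows lie at chr19:41918643-41918660, chr9:59678972-59678998, chr3:89146355-89146381, chr3:104657490-104657516 and chr12:73946230-73946256. The 9 genes with a match had a median of 0.13 for the log2 of knockout over wild type, with 7 of 9 above 0. For the 28 without a match the median was 0.022, with 15 above 0, and for all genes tested it was -0.018, with 47.7% above 0. A match of letters is not a measured site, and which UTR each gene used in these kidneys was not measured.

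None of the 37 genes passed the test between genotypes. With the edgeR quasi-likelihood test and an adjusted p under 0.05, 0 members were called, and 0% of the 18927 genes tested were called. DESeq2 called 62 of all genes and limma-voom (here with libraries weighted by quality) 3, and no member was among them. The adjusted p of the members ran from 0.627 to 0.986. At an unadjusted p under 0.05 there were 2 members, or 1 in each direction, against 7.9% of all genes. They were Slc16a1 on the higher side, where 4.38% of all genes stood, and Slc2a1 on the lower side, where 3.52% stood. The 3 knockout libraries lay entirely above or below the 3 wild-type libraries for 3 members, or 8.11%, against 16.1% of all genes tested. Pfkl was the one on the higher side (8.95% of all genes), and Aldoa and Slc2a1 were on the lower side (7.2% of all genes). The median log2 fold change of the 37 was 0.050, with 22 above 0. The plot of differences shows most error bars crossing 0.

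**Figure D1:**
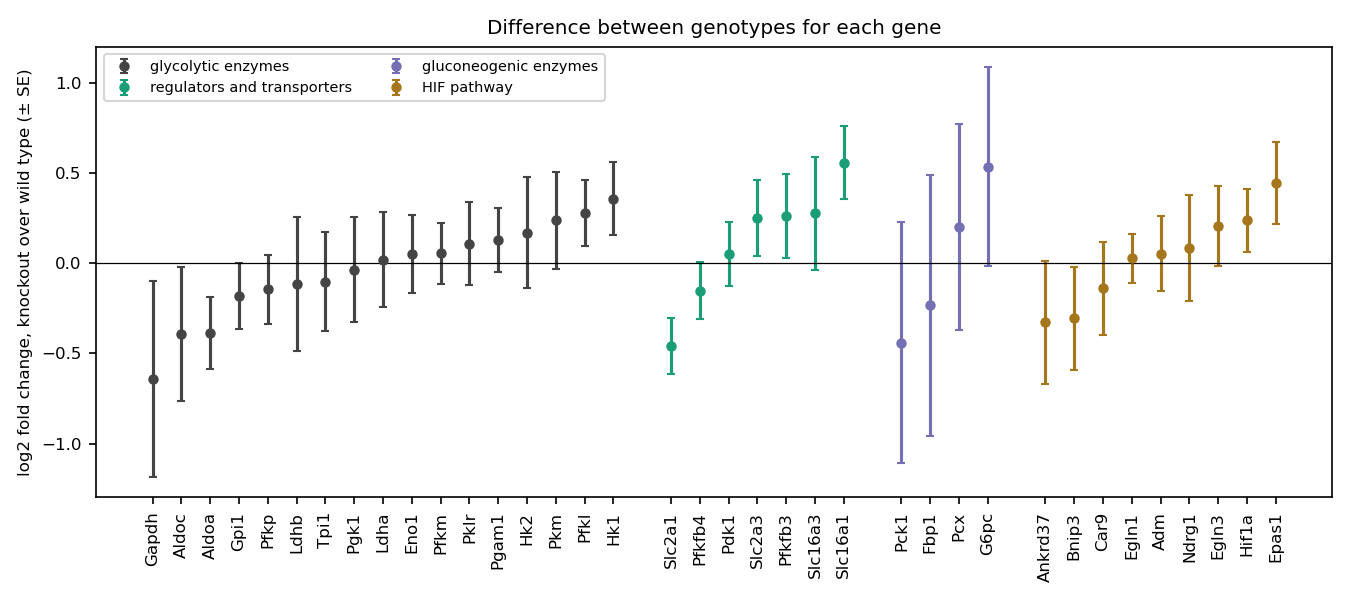
Log2 of knockout over wild type for each of the 37 genes with its standard error, grouped by role and ordered by value within a role (n = 3 libraries per genotype). Slc2a1 at -0.46 and Slc16a1 at 0.56 have the smallest p, and the 4 gluconeogenic enzymes have error bars of 0.55 to 0.72.

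The libraries held 38738204 to 51932509 counts. Levels differed between libraries of one genotype: wild-type replicate 3 gave the highest level for 18 of the 37 genes, wild-type replicate 1 the lowest for 17, and knockout replicate 3 the lowest for 9. All 12 proximal tubule markers (such as Slc34a1, Lrp2 and Slc27a2) were detected, and their summed level ran from 6071 to 17903 CPM (the read count relative to the TMM-scaled library size) in the wild type and from 2763 to 9036 CPM in the knockout. Kap made up more of that sum than any other marker, and without it the sums ran from 2484 to 5585 and from 1280.1 to 4198 CPM, with wild-type replicate 3 highest and knockout replicate 3 lowest as before. The groups did not overlap for the summed levels of 4 other marker lists. Macrophage markers summed to 1352 to 1443 CPM in the wild type and 1645 to 1982 CPM in the knockout, with 4 of 9 genes not overlapping. Collecting duct markers summed to 154 to 219 and 73.4 to 132 CPM (2 of 5 genes), and immediate early genes to 790.4 to 2249 and 464 to 548 CPM (6 of 7 genes). Skeletal muscle markers summed to 4.79 to 5.20 and 0.457 to 0.644 CPM (5 of 5 genes, with Myh4 and Myh1 at 0 in every knockout library). The part of these lists in the differences below was not tested. The labels name no batch and do not say that replicates are separate animals, so the p-values may measure a technical spread.

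The 4 gluconeogenic enzymes differed several-fold between libraries of one genotype, and none passed the test between genotypes. Below, the 3 values of a genotype are in CPM and stand in the order of replicates 1, 2 and 3. Pck1, the cytosolic PEPCK that turns oxaloacetate into phosphoenolpyruvate, measured 343, 363 and 931 CPM in the wild type and 694, 409.5 and 101 CPM in the knockout. Wild-type replicate 3 and knockout replicate 1 were high and knockout replicate 3 was low, a 9.21-fold span, and the groups overlapped. The log2 fold change was -0.44 ± 0.67 (SE, n = 3 per group; edgeR adjusted p = 0.834).

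Fbp1, the fructose-bisphosphatase that opposes phosphofructokinase, measured 41.8, 102 and 264 CPM in the wild type and 185, 122 and 39.9 CPM in the knockout. Its log2 fold change was -0.23 ± 0.72, and the lowest library of each genotype stood near 40 CPM. Pcx, the mitochondrial pyruvate carboxylase that supplies oxaloacetate, measured 46.7, 69.5 and 132 CPM in the wild type and 159, 93.1 and 33.8 CPM in the knockout (0.20 ± 0.57). G6pc, the glucose-6-phosphatase that releases free glucose, measured 18.5, 12.6 and 36.2 CPM in the wild type and 51.8, 33.7 and 12.2 CPM in the knockout (0.54 ± 0.55). In both genes knockout replicate 1 was the highest library and knockout replicate 3 the lowest. All 4 genes had wild-type replicate 3 and knockout replicate 1 as their 2 highest libraries, as had 9 of the 12 proximal tubule markers, and knockout replicate 3 was lowest for 4 of 4 enzymes and 11 of 12 markers. In bulk RNA, fewer proximal tubule cells and less of the transcript per cell cannot be told apart. The highest library exceeded the lowest by 4.25-fold to 9.21-fold across the 4 genes, whereas the median over all genes tested was 1.77-fold.

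**Figure D2:**
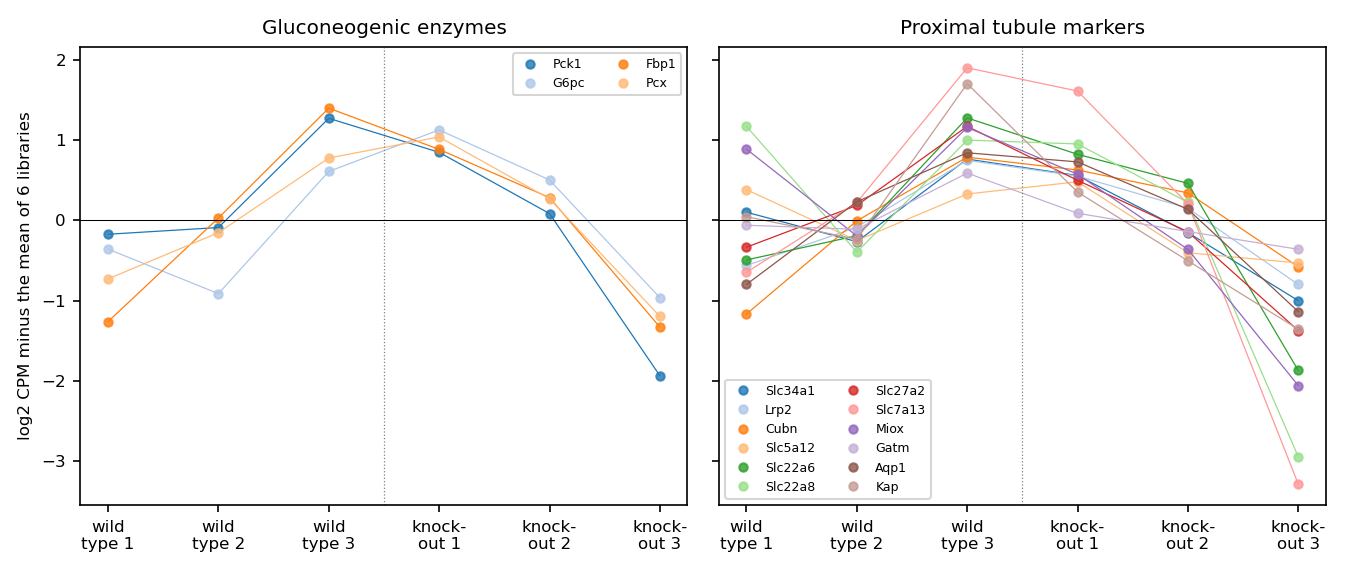
Log2 CPM minus the mean of the 6 libraries for the 4 gluconeogenic enzymes (left) and the 12 proximal tubule markers (right), with thin lines joining the values of one gene. In both panels most genes stand above 0 in wild-type replicate 3 and knockout replicate 1 and below 0 in knockout replicate 3.

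The direction of the difference depended on single libraries for Pck1, Fbp1 and Pcx, whereas G6pc lay above 0 under all 17 alternatives (0.031 to 1.46). Without knockout replicate 3, Pck1 was at 0.020, Fbp1 at 0.18, Pcx at 0.61 and G6pc at 0.93 on the log2 scale. Without wild-type replicate 3 they were at 0.19, 0.68, 0.71 and 1.07. Without knockout replicate 1 they were at -1.09, -0.75, -0.38 and 0.031, and without wild-type replicate 1 Pcx was at -0.082. After the pair of libraries numbered 3 was dropped, the 4 genes stood at 0.65, 1.09, 1.12 and 1.46, none of them called (smallest adjusted p = 0.525). Their median with all libraries was -0.018. Levels per transcript length (counts per kilobase of exon scaled to the same sum in each library, TPM) put Pck1 first in the wild type at 521 ± 236 (SD, n = 3), then Fbp1 at 256 ± 182, Pcx at 57.6 ± 22.3 and G6pc at 30.8 ± 12.3. The SDs of neighbours in that order overlapped, but the order itself was the same in every library of both genotypes.

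Glycolytic enzymes lay on both sides of 0, and none passed the test. Their 17 log2 fold changes had a median of 0.019, 9 of 17 lay above 0, and all but Gapdh lay between -0.39 and 0.36. Hk1, the hexokinase of most resting cells, measured 78.1, 133 and 106 CPM in the wild type and 145, 139.7 and 123 CPM in the knockout, which is 0.36 ± 0.20 on the log2 scale (edgeR adjusted p = 0.641). Wild-type replicate 2 overlapped the knockout. The value was 0.18 without wild-type replicate 1, 0.56 without wild-type replicate 2 and 0.18 with limma-voom. Hk2, the inducible hexokinase, measured 33.1, 27.6 and 28.1 CPM and 19.8, 29.7 and 50.3 CPM, with knockout replicate 1 the lowest library and replicate 3 the highest. Its value of 0.17 ± 0.31 turned to -0.26 without knockout replicate 3.

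Phosphofructokinase commits sugar to glycolysis and is built from 3 kinds of subunit. Pfkl, the liver-type subunit, measured 41.0, 64.0 and 62.2 CPM in the wild type and 72.6, 65.6 and 64.7 CPM in the knockout. The lowest knockout library lay above the highest wild-type one, but knockout replicate 3 exceeded wild-type replicate 2 by less than 1 CPM, and the difference was 0.28 ± 0.18 (edgeR adjusted p = 0.661; 0.10 without wild-type replicate 1, the lowest library). With library size alone as the scaling, or with upper-quartile factors, or with the transcript length trend removed, the groups overlapped. The platelet-type subunit Pfkp and the muscle-type subunit Pfkm stood at -0.15 ± 0.19 and 0.06 ± 0.17, and Pfkp ranged from -0.28 to -0.018 with 1 library left out. Without wild-type replicate 1 or knockout replicate 1 Pfkm turned to -0.030 or -0.11.

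Aldoa, the aldolase of glycolysis, measured 780.4, 725 and 992 CPM in the wild type and 715, 602 and 590.3 CPM in the knockout. Knockout replicate 1 lay just under wild-type replicate 2, and wild-type replicate 3 stood highest. The log2 fold change was -0.39 ± 0.20 (edgeR adjusted p = 0.638), -0.24 without wild-type replicate 3 and -0.26 with the length trend removed, where the groups overlapped. Muscle also expresses Aldoa strongly, and the muscle markers named above were lower in the knockout, with a sum of at most 5.20 CPM in the wild type. Their part in the Aldoa value was not tested. Aldoc, the brain-type aldolase, was at -0.39 ± 0.37 and under 10 CPM in every library. It was at -0.088 without knockout replicate 3 and -0.68 without knockout replicate 1.

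The other enzymes of the middle of the pathway differed by less than their standard error or little more. Tpi1, Pgk1, Pgam1 and Eno1, which carry triose phosphates on to phosphoenolpyruvate, stood at -0.10 ± 0.27, -0.04 ± 0.29, 0.13 ± 0.18 and 0.05 ± 0.22, and Gpi1, the isomerase before phosphofructokinase, at -0.18 ± 0.18. In all 5 genes wild-type replicate 3 was highest, as given for the proximal tubule markers. Without it Tpi1 and Pgk1 turned to 0.24 and 0.34, Pgam1 and Eno1 were at 0.32 and 0.27, and Gpi1 was at -0.035. Eno1 was also at -0.044 without wild-type replicate 1, -0.047 without wild-type replicate 2 and -0.045 without knockout replicate 3, and Pgk1 at 0.028 without knockout replicate 2.

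Gapdh, often used as a reference gene, measured 57.3, 14.7 and 24.1 CPM in the wild type and 32.9, 12.0 and 16.6 CPM in the knockout, a span of 4.75-fold with the highest library in the wild type. Its 27.5 ± 21.5 TPM in the wild type compares with 447 ± 129 TPM for Pgk1, the next enzyme of the pathway. Of the 50-base stretches of its longest coding transcript, 82.5% also occur in transcripts of 222 other annotated genes, so its counts are uncertain. The log2 fold change of -0.64 ± 0.54 turned to 0.083 without wild-type replicate 1. The same share was 72.2% for Eno1, 68.0% for Pgk1, 62.4% for Bnip3, 41.5% for Pgam1 and 34.4% for Pkm. It exceeded 20% for 9 of the 37 genes, whose levels are uncertain for this reason, and it was 0% for 16, among them all 4 gluconeogenic enzymes.

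Pyruvate kinase makes pyruvate in the last step of glycolysis. Pkm, the form of most tissues, measured 407, 348 and 337 CPM in the wild type and 337, 332 and 618 CPM in the knockout. A single library, knockout replicate 3, stood apart from the other 5, and the log2 fold change of 0.24 ± 0.27 was -0.12 without it. Pklr, the form of liver and proximal tubule, measured 71.2, 105 and 130.2 CPM and 91.3, 118 and 121 CPM, with a difference of 0.11 ± 0.23 (-0.097 without wild-type replicate 1). Pklr lies on the same chromosome as the deleted gene (chr3:89136142-89146784, GRCm38), with its end 80.3 kb from Mir92b at chr3:89227116-89227198. Its groups overlapped.

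Ldha and Ldhb encode the subunits of lactate dehydrogenase, of which Ldha favours lactate formation. Ldha measured 339, 485 and 702 CPM in the wild type and 509, 503 and 534 CPM in the knockout. The 3 knockout libraries fell within the wild-type range, and the difference was 0.02 ± 0.26. Ldhb measured 945, 1821 and 2517 CPM in the wild type and 2015, 1643 and 1219 CPM in the knockout (-0.12 ± 0.37), again with the knockout inside the wild-type range. Both depended on single libraries: Ldha was at -0.20 without wild-type replicate 1 and 0.33 without wild-type replicate 3, and Ldhb at 0.24 without wild-type replicate 3 and 0.056 without knockout replicate 3. Ldha was also at -0.0074 without wild-type replicate 2 and -0.0057 without knockout replicate 3. Per length, Ldhb was the most abundant of the 37 transcripts, at 3754 ± 1298 TPM in the wild type and 3704 ± 874 TPM in the knockout, followed in the wild type by Aldoa at 977 ± 46.7, Ndrg1 at 882 ± 217 and Pck1 at 521 ± 236 TPM. Ldhb lay above Aldoa beyond their SDs, whereas Aldoa and Ndrg1 did not differ beyond theirs.

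**Figure D3:**
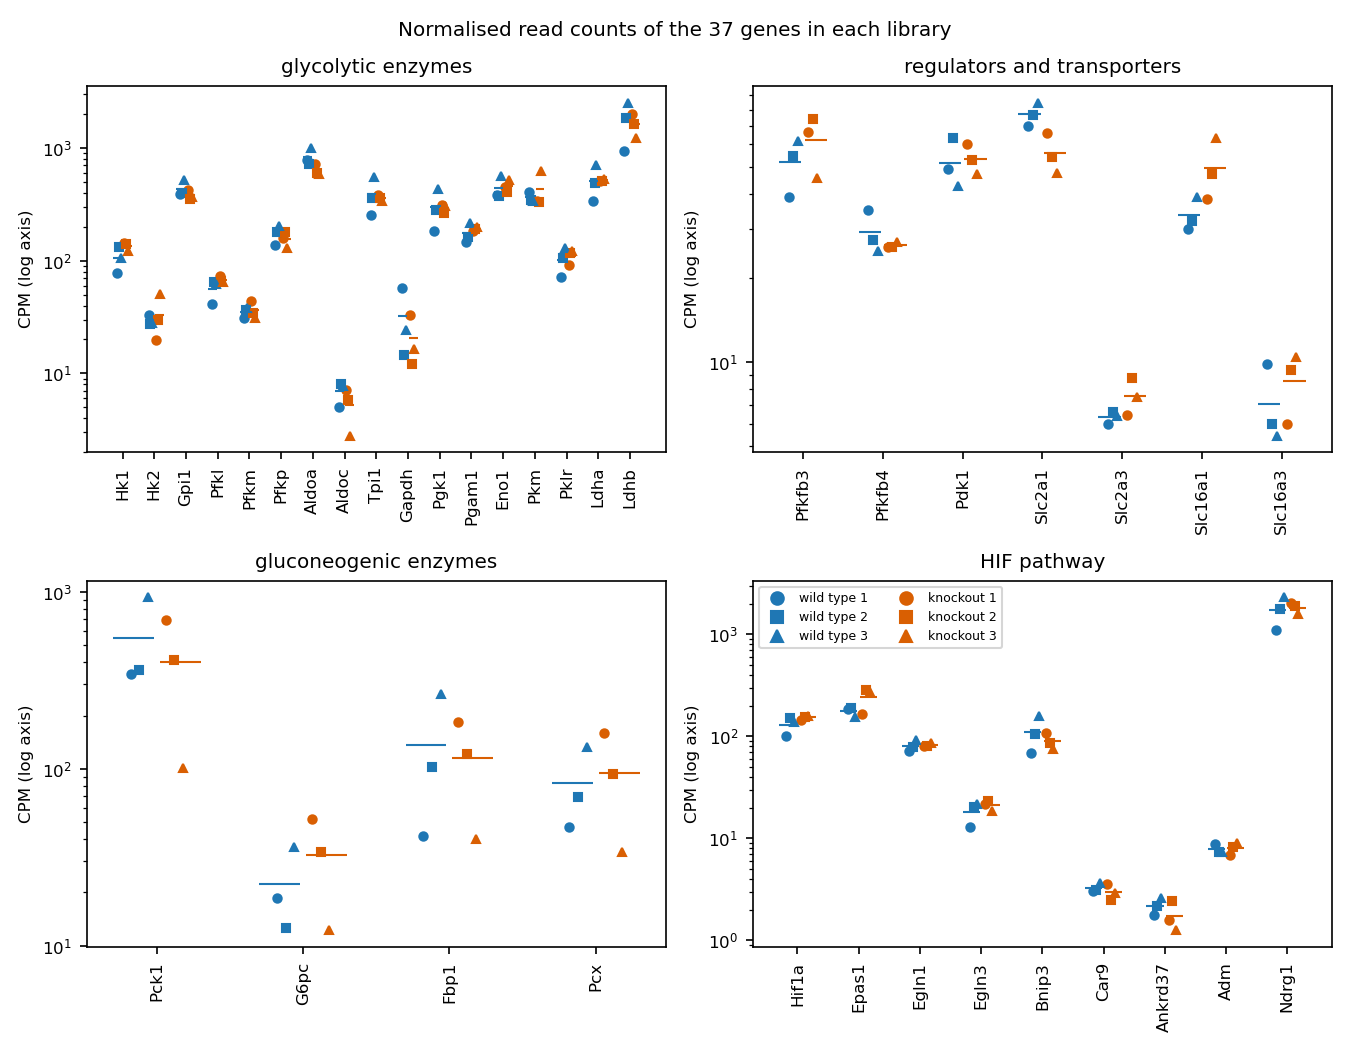
Normalised read counts (CPM, log axis) of the 37 genes in the 6 libraries, in 4 panels by role; symbols mark replicates 1 to 3, colours the genotype and short bars the mean of a genotype. Genotypes intermingle for most genes, and Pck1, Fbp1, Gapdh, Pcx and G6pc have the widest spread.

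Ratios of paired genes within a library do not depend on how libraries are scaled. For 13 pairs, computed as log2 ratios of counts per kilobase of exon, the groups did not overlap in 2. The share over other gene pairs was not computed, and for single genes it was 16.1% of all genes tested. Both pairs hold a gene whose groups did not overlap on its own, Slc2a1 and Pfkl. The ratio of Slc2a3 (GLUT3) to Slc2a1 (GLUT1) was -4.58, -4.57 and -4.77 in the wild type and -4.39, -3.68 and -3.72 in the knockout, so Slc2a1 was the main form of this pair in every library and its excess was smaller in every knockout library, by 0.71 on average. The ratio of Pfkp to Pfkl was 0.75, 0.48 and 0.69 in the wild type and 0.13, 0.45 and 0.0074 in the knockout. Knockout replicate 2 was nearest to the wild type there, and the mean difference was -0.45.

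The pairs that set gluconeogenic against glycolytic enzymes overlapped between genotypes. The ratio of Pck1 to Pkm was 0.29, 0.61 and 2.01 in the wild type and 1.59, 0.85 and -2.07 in the knockout, which spans 16.9-fold. Knockout replicate 3 was the one library with more Pkm than Pck1 per length. The ratio of Fbp1 to Pfkl ranged from 1.28 in knockout replicate 3 to 4.06 in wild-type replicate 3, and that of G6pc to Hk1 from -1.58 in wild-type replicate 2 to 0.34 in knockout replicate 1. Among isoforms of one step, Pklr stayed below Pkm in all libraries (-1.89 to -0.74), Ldhb above Ldha (2.27 to 3.06) and Hk2 below Hk1 (-2.35 to -0.72).

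**Figure D4:**
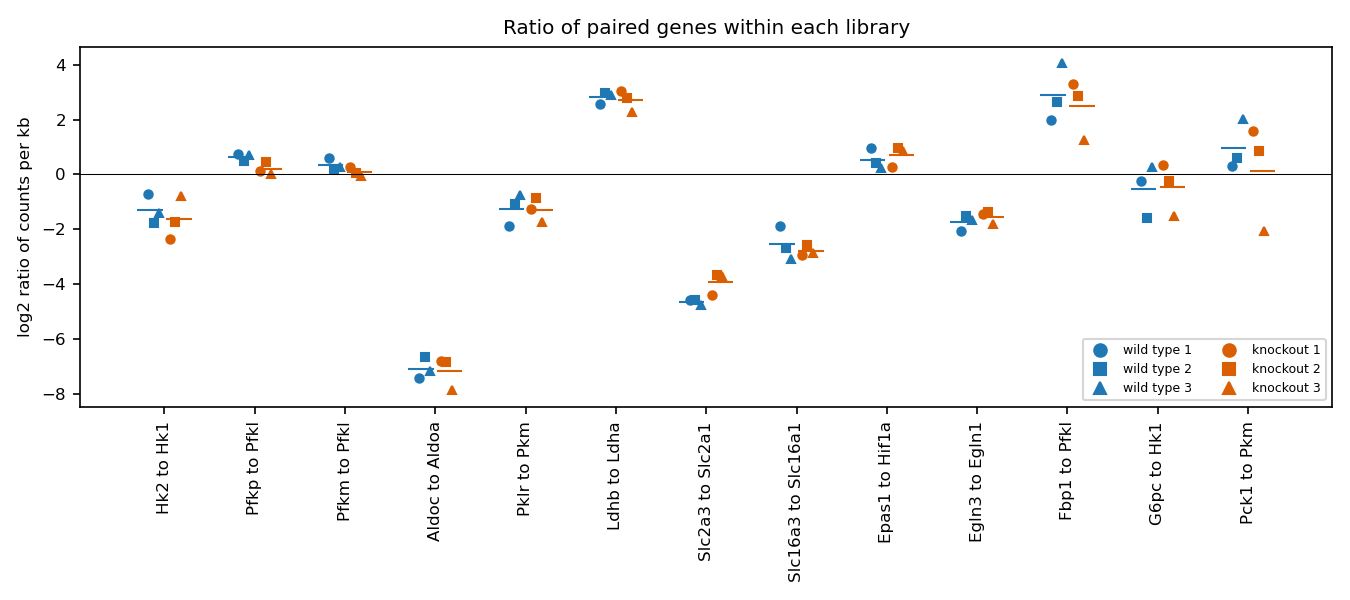
Log2 ratio of counts per kilobase for 13 pairs of genes in each library; symbols mark replicates, colours the genotype and bars the mean of a genotype. The knockout libraries lie apart from the wild type for Pfkp to Pfkl and Slc2a3 to Slc2a1, and the pairs with Pck1, Fbp1 and G6pc spread most.

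Glucose enters cells by facilitated carriers and lactate leaves or enters by monocarboxylate carriers. Slc2a1, the carrier GLUT1, measured 69.7, 76.4 and 84.7 CPM in the wild type and 65.7, 54.3 and 47.6 CPM in the knockout. The highest knockout library lay below the lowest wild-type one, with knockout replicate 1 nearest. The log2 fold change was -0.46 ± 0.16 (edgeR unadjusted p = 0.0186, adjusted p = 0.627), and it stayed below 0 under all 17 alternatives (-0.59 to -0.28), with adjusted p from 0.270 to 0.971. The value nearest 0 came after both libraries numbered 3 were dropped. Because its groups did not overlap, leaving libraries out could hardly turn the sign of Slc2a1. Collecting duct markers, from a segment that is known for glycolysis, and immediate early genes were lower in the same libraries, as given above. Slc2a3, the carrier GLUT3, measured 6.02, 6.64 and 6.40 CPM in the wild type and 6.45, 8.78 and 7.47 CPM in the knockout (0.25 ± 0.21, and 0.13 without knockout replicate 2), with knockout replicate 1 inside the wild-type range.

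Slc16a1, the lactate and pyruvate carrier MCT1, measured 30.02, 31.9 and 38.9 CPM in the wild type and 38.2, 46.9 and 63.1 CPM in the knockout. Knockout replicate 3 was highest, and knockout replicate 1 lay just under wild-type replicate 3, so the groups overlapped in that pair of libraries alone. With library size alone as the scaling the groups did not overlap. The log2 fold change was 0.56 ± 0.20 (edgeR unadjusted p = 0.0260, adjusted p = 0.627), 0.34 without knockout replicate 3, and above 0 under all 17 alternatives (adjusted p 0.294 to 0.971). Because its groups overlapped so little, leaving libraries out could hardly turn the sign of Slc16a1. Slc16a3, the lactate exporter MCT4, was at 0.28 ± 0.31, and it ranged from 0.12 to 0.58 with 1 library left out.

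The enzymes that set flux also overlapped between genotypes. Pfkfb3 and Pfkfb4 make the activator of phosphofructokinase and stood at 0.26 ± 0.23 and -0.15 ± 0.16. Without wild-type replicate 1 they were at 0.090 and -0.00058, and without wild-type replicate 3 at 0.41 and -0.25. Pfkfb3 was also at 0.11 without knockout replicate 2 and 0.44 without knockout replicate 3. Pdk1, the kinase that shuts pyruvate out of the citric acid cycle, stood at 0.05 ± 0.18, and it was at -0.066 without wild-type replicate 3 and -0.044 without knockout replicate 1. The median of the 7 regulators and carriers was 0.25, with 5 above 0, and it was 0.090 without wild-type replicate 1 and 0.014 after both libraries numbered 3 were dropped.

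The HIF subunits were well expressed in both genotypes. Hif1a, the subunit known for driving glycolytic genes, measured 100.2, 151 and 139 CPM in the wild type and 144, 155 and 160.0 CPM in the knockout, with wild-type replicate 1 low and wild-type replicate 2 inside the knockout range (0.24 ± 0.18, edgeR adjusted p = 0.680). Its value was 0.081 without wild-type replicate 1, 0.36 without wild-type replicate 2 and 0.098 with limma-voom. Epas1, the subunit HIF-2α of endothelium and fibroblast-like cells, measured 187, 189.9 and 157 CPM in the wild type and 165, 287 and 274 CPM in the knockout. Knockout replicates 2 and 3 stood above the other 4 libraries and knockout replicate 1 within the wild-type range, for a difference of 0.44 ± 0.23 (edgeR adjusted p = 0.638). It was 0.66 without knockout replicate 1, 0.30 without knockout replicate 2, 0.35 without knockout replicate 3 and 0.27 without both libraries numbered 3. The summed fibroblast markers were likewise highest in knockout replicates 3 and 2, at 4904 and 3322 CPM against 1223 to 2608 CPM in the wild type. The endothelial markers summed to 534 CPM in knockout replicate 3 and 286 CPM in knockout replicate 2, with wild-type replicate 1 between them at 348 CPM. The part of both lists in the Epas1 value was not tested.

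The prolyl hydroxylases Egln1 and Egln3, which mark HIF for destruction, stood at 0.03 ± 0.14 and 0.21 ± 0.22. Egln3 was at 0.0066 without wild-type replicate 1 and 0.36 without wild-type replicate 3. Egln1 was the steadiest of the 37 genes, its highest library exceeding its lowest by 1.30-fold, and it was at -0.054 without wild-type replicate 1 and -0.00098 without knockout replicate 3. Among HIF targets Bnip3, a mitophagy receptor, measured 69.2, 106 and 157 CPM in the wild type and 107, 85.2 and 75.8 CPM in the knockout, with wild-type replicate 3 highest. Its -0.31 ± 0.29 turned to 0.035 without that library. Ndrg1, a stress-responsive gene, stood at 0.08 ± 0.29 (-0.15 without wild-type replicate 1) and Adm, the vasodilator peptide adrenomedullin, at 0.05 ± 0.21 (-0.038 without knockout replicate 3). Car9, the carbonic anhydrase that marks strong hypoxia in many tissues, and Ankrd37 were low in both genotypes, at 3.28 ± 0.307 and 2.20 ± 0.414 CPM (SD, n = 3) in the wild type, with log2 fold changes of -0.14 ± 0.26 and -0.33 ± 0.34. With 1 library left out Car9 ranged from -0.28 to -0.028 and Ankrd37 from -0.64 to -0.13. The median of the 9 genes was 0.053, with 6 above 0, and the groups overlapped for all 9.

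Genes of the same pathways outside the 37 were read from a list of 41 glycolysis, gluconeogenesis and pyruvate genes and 29 HIF and hypoxia genes. Of these 70, 65 were measured, and 0 passed with edgeR, DESeq2 or limma-voom after adjustment. At an unadjusted edgeR p under 0.05, 4 stood on the higher side (4.38% of all genes) and 3 on the lower side (3.52% of all genes). The groups did not overlap for 7 (10.8%, against 16.1% of all genes). The median log2 fold change of the 65 was -0.042. On the glycolytic side Pck2, the mitochondrial PEPCK, measured 69.9, 57.9 and 70.2 CPM in the wild type and 58.9, 57.6 and 79.5 CPM in the knockout and differed by -0.01 ± 0.17. With each library left out in turn it ranged from -0.18 to 0.066. Pdp1, the phosphatase that reopens pyruvate dehydrogenase, measured 14.9, 18.4 and 16.9 CPM in the wild type and 20.6, 21.9 and 27.8 CPM in the knockout (0.49 ± 0.17, edgeR unadjusted p = 0.0231, adjusted p = 0.627). Eno3, the muscle-type enolase, measured 47.9, 33.3 and 32.4 CPM in the wild type and 28.1, 25.9 and 28.2 CPM in the knockout (-0.47 ± 0.18, unadjusted p = 0.0305 with edgeR), beside skeletal muscle markers that were lower in the same libraries, whose part was not tested.

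Of the 27 measured HIF and hypoxia genes of that list, 5 did not overlap between the groups (18.5%), which is near the 16.1% of all genes. Of the 5, 3 were on the higher side (8.95% of all genes) and 2 on the lower side (7.2% of all genes). The higher ones encode proteins known to restrain HIF, a grouping made after their values were seen and not tested. Egln2, the other prolyl hydroxylase, measured 37.7, 50.0 and 48.2 CPM in the wild type and 63.6, 68.6 and 62.4 CPM in the knockout (0.52 ± 0.14, edgeR unadjusted p = 0.00711). Vhl, the ligase subunit that binds hydroxylated HIF, measured 30.9, 33.2 and 30.5 CPM and 40.0, 43.4 and 41.6 CPM (0.40 ± 0.12, unadjusted p = 0.00890 with edgeR). Hif1an, the asparaginyl hydroxylase that blocks HIF from its coactivators, measured 50.7, 61.6 and 53.0 CPM and 68.6, 74.2 and 68.7 CPM (0.36 ± 0.13, unadjusted p = 0.0234 with edgeR). Vegfa, the angiogenic HIF target, lay lower in every knockout library, at 221, 170.0 and 152 CPM against 336, 237 and 247 CPM in the wild type (-0.59 ± 0.21, edgeR unadjusted p = 0.0222). Fam162a, a mitochondrial hypoxia-responsive gene, also lay lower in every knockout library, at 31.0, 26.0 and 33.0 CPM against 42.6, 34.5 and 43.5 CPM (-0.42 ± 0.15, unadjusted p = 0.0247 with edgeR). The adjusted p was 0.627 for each of these 5. Their signs were the same under all 17 alternatives, but where groups do not overlap, leaving libraries out can hardly turn a sign. The log2 values were -0.52 to -0.16 for Fam162a, 0.40 to 0.60 for Egln2, 0.37 to 0.45 for Vhl, 0.22 to 0.45 for Hif1an and -0.76 to -0.42 for Vegfa. The smallest adjusted p of the 5 over the alternatives was 0.266. The groups overlapped for the other HIF subunits and regulators listed, Arnt (0.16 ± 0.13), Arnt2 (0.31 ± 0.20) and Hif3a (-0.12 ± 0.37), and for Egln1 and Egln3.

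**Figure D5:**
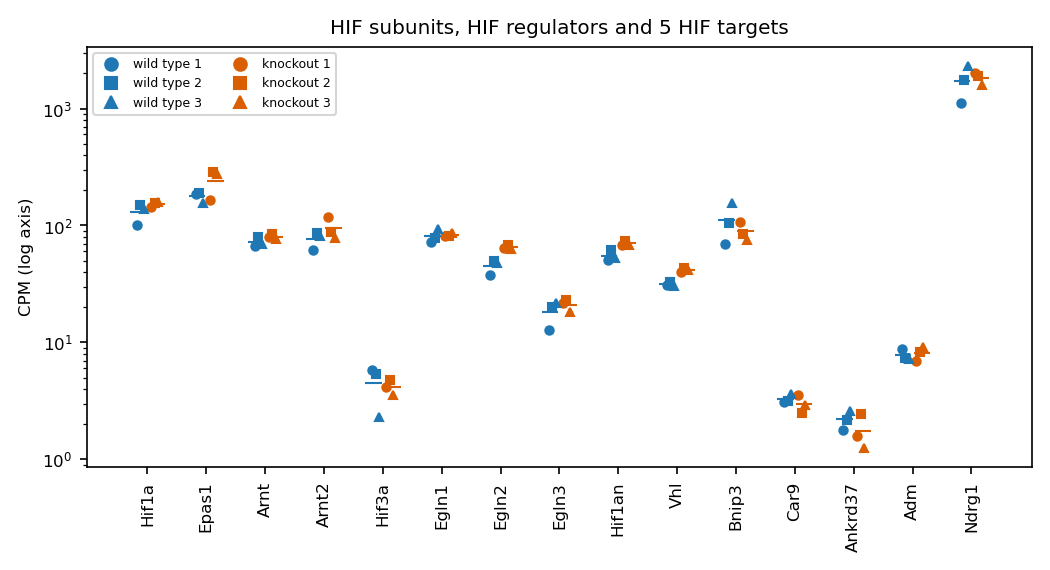
Normalised read counts (CPM, log axis) in each library for all HIF subunits and HIF regulators listed and the 5 HIF targets among the 9 HIF pathway genes; symbols mark replicates, colours the genotype and bars the mean. The genotypes are separate for Egln2, Hif1an and Vhl (knockout above) and overlap for the other 12 genes.

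HIF binds the short cores ACGTG and GCGTG, and promoters were searched for both on either strand in the RefSeq window of 250 bases before to 50 after the start of a gene (GRCm38.p6). A CACGTG palindrome counts on both strands. Where a gene had more than 1 window, only the first listed was searched, in members and background alike. Pfkm had 4 windows, Aldoa and Eno1 had 3, and Hk1, Pkm, Pklr and others had 2. Cores in their other windows were not counted. Of the 37 genes 34 matched the promoter table, and Slc2a3, Epas1 and Ndrg1 did not. ACGTG stood in 18 of them (52.9%) against 23.5% of the 14859 tested genes with a promoter and 19.7% of all 27025 genes in the table. GCGTG stood in 16 (47.1%) against 44.8% and 32.5%. The mean GC content was 61.1% in the members and 58.9% in the tested genes. By role, ACGTG stood in 6 of 7 HIF pathway genes, 4 of 6 regulators and carriers, 7 of 17 glycolytic enzymes and 1 of 4 gluconeogenic enzymes.

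Promoters are printed with the cores in capitals for Ldha, which held the most (7 matches), Slc2a1, the member with the smallest p (2 matches), and Pck1, with none. They lie at chr7:46845554-46845853 (the first of 2 windows listed for Ldha), chr4:119108495-119108794 and chr2:173152823-173153122, all on the plus strand.
Ldha promoter: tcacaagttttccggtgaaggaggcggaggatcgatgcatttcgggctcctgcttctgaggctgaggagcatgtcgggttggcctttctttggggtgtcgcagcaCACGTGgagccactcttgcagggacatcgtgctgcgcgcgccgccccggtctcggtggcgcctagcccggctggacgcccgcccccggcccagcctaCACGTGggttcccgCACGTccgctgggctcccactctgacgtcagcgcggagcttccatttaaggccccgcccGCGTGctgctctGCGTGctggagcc
Slc2a1 promoter: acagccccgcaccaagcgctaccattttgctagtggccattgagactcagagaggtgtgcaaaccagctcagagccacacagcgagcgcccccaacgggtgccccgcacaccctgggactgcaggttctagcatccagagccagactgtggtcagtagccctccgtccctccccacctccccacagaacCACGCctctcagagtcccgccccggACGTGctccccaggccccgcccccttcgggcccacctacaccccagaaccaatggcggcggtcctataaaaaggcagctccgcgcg
Pck1 promoter: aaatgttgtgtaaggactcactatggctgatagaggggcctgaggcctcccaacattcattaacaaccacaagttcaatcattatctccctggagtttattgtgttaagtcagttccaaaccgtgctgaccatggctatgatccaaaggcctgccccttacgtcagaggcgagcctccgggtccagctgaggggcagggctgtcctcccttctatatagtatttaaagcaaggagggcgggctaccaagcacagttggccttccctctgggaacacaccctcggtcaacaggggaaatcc
The Ldha window thus held the most matches among the members, with each CACGTG palindrome counted on both strands. On the log2 scale its transcript differed by 0.02 between genotypes, and Slc2a1 differed by -0.46. A link between the cores and these differences was not tested. A match of letters does not show binding, which was not measured.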

How the data were processed

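RNA sequencing of 6 ligated mouse kidneys was analysed. Raw counts of reads, one row per gene symbol, were deposited by the authors, and the builds GRCm38 and mm10 are named in the submitters' processing notes. Which aligner and counter were used, and whether strand was used, is not given in the sources used here, so overlapping and near-identical genes may share counts. Groups and replicate numbers came from titles, and columns were matched to the descriptions. The knockout columns give the parts of the description in another order. Lengths came from GENCODE M21 for 89.7% of the tested genes.

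filterByExpr kept 18927 genes. Counts were scaled by TMM, and groups were compared with the quasi-likelihood test of edgeR 4.0.16 (robust, group as the only term) in R 4.3.3 with Benjamini-Hochberg adjustment over all genes and a threshold of 0.05. The SE is the size of the log2 change divided by the root of F. Ratios used a pseudocount of 0.5 counts. The pipeline was tested on simulated counts. Alternatives were other scalings and filters, DESeq2 1.42.0, limma-voom (limma 3.58.1), a replicate block, removal of the transcript length trend by loess, and libraries left out. The limma-voom fit used sample quality weights, which give libraries unequal weight, so its values differ from the main ones in that respect too.

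The members and lists were chosen with earlier results of these data known. Values per library are given for 12 fixed members, every member whose groups do not overlap, and the 3 with the smallest p in each role among those of at least 5 CPM. Of other pathway genes, Pck2 and the 5 with the smallest p (Vegfa, fixed by name, among them) are described, and 1 further gene is not reported here. Gapdh per library, Eno3, Fam162a, Arnt, Arnt2, Hif3a and the sum without Kap were added after their values were seen. Library pairs of a genotype differed by a chi-square of 44.7 or more per degree of freedom, so none is a second copy of the same library.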

Additional observations from a re-analysis of the deposited data

How the results depend on the processing

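No member was called under any of the 17 alternatives, and 16 of the 37 kept the sign of their difference in all of them. Among the 16 are Pfkl, Aldoa and Slc2a1, whose groups did not overlap, so leaving libraries out could hardly turn their sign. Over all genes, the count of calls was 0 with the main settings, 2 with no filter, 1 with the replicate block, 1 after both libraries numbered 3 were dropped, 62 with the DESeq2 Wald test and 3 with limma-voom, and it ranged from 0 to 1 with 1 library left out. Members whose groups do not overlap numbered 4 to 9 with 1 library left out and 19 after both libraries numbered 3 were dropped. Smaller groups overlap less by construction. Over all genes the counts ran from 3906 of 19407 to 6226 of 19368 with 1 library left out. They were 9396 of 19088 with both dropped and 3056 of 18927 with all. With the length trend removed, 1343 genes stood on the higher and 1746 on the lower side, against 1694 and 1362. The role medians ranged, with 1 library left out, from -0.097 to 0.24 for glycolytic enzymes, 0.090 to 0.23 for regulators and carriers, -0.57 to 0.70 for gluconeogenic enzymes and -0.054 to 0.14 for HIF genes. After both libraries numbered 3 were dropped the first 3 were 0.22, 0.014 and 1.10, and with the length trend removed the regulators and carriers were at 0.11. The cause of these shifts was not tested.

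Log2 values with the opposite sign were, after both libraries numbered 3 were dropped, Hk2 -0.29, Pfkp 0.097, Tpi1 0.29, Pgk1 0.31, Pkm -0.17, Ldhb 0.41, Slc16a3 -0.040, Pck1 0.65, Fbp1 1.09, Bnip3 0.14, Ankrd37 0.013, Adm -0.082. With the length trend removed they were Tpi1 0.018, Pgk1 0.060, Ldhb 0.034, Pdk1 -0.047, Egln1 -0.017, with limma-voom Pfkm -0.0053, Pdk1 -0.13, Fbp1 0.17, Pck2 0.0028, with upper-quartile factors Egln1 -0.0019 and with the replicate block Pgk1 0.046. With 1 library left out the ranges of genes that changed sign were Hk2 -0.26 to 0.44, Pfkm -0.11 to 0.16, Tpi1 -0.33 to 0.24, Gapdh -1.16 to 0.083, Pgk1 -0.29 to 0.34, Eno1 -0.047 to 0.27, Pkm -0.12 to 0.39, Pklr -0.097 to 0.32, Ldha -0.20 to 0.33, Ldhb -0.41 to 0.24, Pdk1 -0.066 to 0.23, Pck1 -1.09 to 0.19, Fbp1 -0.75 to 0.68, Pcx -0.38 to 0.71, Egln1 -0.054 to 0.14, Bnip3 -0.55 to 0.035, Adm -0.038 to 0.15, Ndrg1 -0.15 to 0.35, Pck2 -0.18 to 0.066. Same-numbered libraries did not deviate together (correlations of -0.28, 0.18 and -0.29 over genes). With 3 libraries a group, this cannot exclude that the replicate numbers pair the samples. No member was called with or without the replicate block. Of 104 alternative values of the gene ratios, 2 moved by more than the spread between replicates, both after the libraries numbered 3 were dropped. They were Pck1 to Pkm (-0.85 to 0.77) and Fbp1 to Pfkl (-0.41 to 0.77). Leaving out 1 of 3 libraries cannot move a mean difference by that spread, so this count does not show that the ratios are stable. The DESeq2 Wald test called 62 genes where edgeR called none, and no member was among them. The biological coefficient of variation was 26.9%, with 3 libraries a group.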
